A study of Mus musculus with 66 samples.

Results

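RNA of the hippocampus was compared with RNA of the cerebellum of the same wild-type mice of the inbred strain DBA/1J. The members are 6 of the 66 libraries of the series, 3 hippocampi and 3 cerebella, chosen by the labelled tissue and genotype, and all genes were described. The libraries came from 3 mice aged 7 weeks, labelled female for animals 1 and 2 and male for animal 3, and each mouse gave 1 library per region. The study as a whole followed mice with spontaneous mutations of *Rorb*, a nuclear receptor gene, and used DBA/1J as the control of the h5 allele. That allele arose on DBA/1J, and hippocampus and cerebellum of 3 homozygous H5/H5 mice, also labelled 7 weeks old and female, male and female, served here as another set of animals. The cortex of the 3 DBA/1J mice was used for reference levels. No mouse of either genotype carried a transgene according to the labels. Each library held polyadenylated RNA of a whole dissected region, so every value is a mixture over neurons, glia, vessels and any adjoining tissue.

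The hippocampus belongs to the forebrain and is built mainly of glutamatergic pyramidal neurons of the CA fields and granule neurons of the dentate gyrus, which are known for plasticity of their spine synapses. The cerebellum belongs to the hindbrain. It holds a very large number of small granule neurons that excite Purkinje cells through parallel fibers, and the Purkinje cells, which are inhibitory, form the only output of its cortex and depend on calcium release from internal stores. Neurons of each region keep transcription factors of their embryonic origin and use different members of the same receptor and channel families.

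Total counts ranged from 33801889 to 41906514 in hippocampus and from 35248488 to 43477472 in cerebellum. Values are given as CPM, counts scaled to an equal library size, after TMM scaling, in the order of animals 1, 2 and 3. Fold changes are on the log2 scale, hippocampus minus cerebellum, with a standard error (SE) derived from a paired edgeR fit. It is the absolute fold change over the square root of the F statistic of the test. This SE is too small where a region had few counts. For *Fezf2*, with 1 cerebellar count, it was 0.27, while a 95% exact binomial interval of the ratio ran from 569 to 125000. Libraries of 1 region correlated at 0.988 to 0.991 in log2 CPM and libraries of different regions at 0.891 to 0.895, and 95.53% of the variance lay on the leading principal component, on which the regions lay apart. The regional labels were also met by marker genes. *Gabra6*, the cerebellar granule cell subunit of the GABA-A receptor, had 4 counts in the 3 hippocampi together, and *Fezf2*, a forebrain transcription factor, had 1 count in the 3 cerebella. Libraries of 1 region also differed in genes of adjoining tissue. The hippocampus of animal 2 had less choroid plexus RNA than the other hippocampi (*Ttr*, the transthyretin gene, at 2457, 748 and 3099 CPM) and more of several striatal or septal markers (the zinc finger gene *Zic1* at 19.99, 55.7 and 24.4 CPM). Counts without that animal are given below.

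Most genes differed between the regions. Of 17332 genes tested, 10826 (62.5%) were called at a Benjamini-Hochberg adjusted p of 0.05 by edgeR's quasi-likelihood test, 5376 higher in hippocampus (31.0% of those tested) and 5450 higher in cerebellum (31.4%). With library sizes alone, without TMM factors, the split was 4868 against 6058. The libraries of the regions did not overlap in 11966 genes (69.0%). Many of the called differences were small, with a median absolute log2 fold change of 0.73, and 4148 genes (23.9%) were called and over 2-fold, 2453 higher in hippocampus (14.2%) and 1695 in cerebellum (9.78%). Large differences were more often toward the hippocampus: 1156 genes were over 4-fold higher there against 637 in cerebellum, and 230 were over 32-fold higher there against 111. Without animal 2, 10130 genes were called. Since these are bulk tissues, fewer cells of a type and less RNA per cell cannot be told apart in any of these values.

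**Figure D1:**
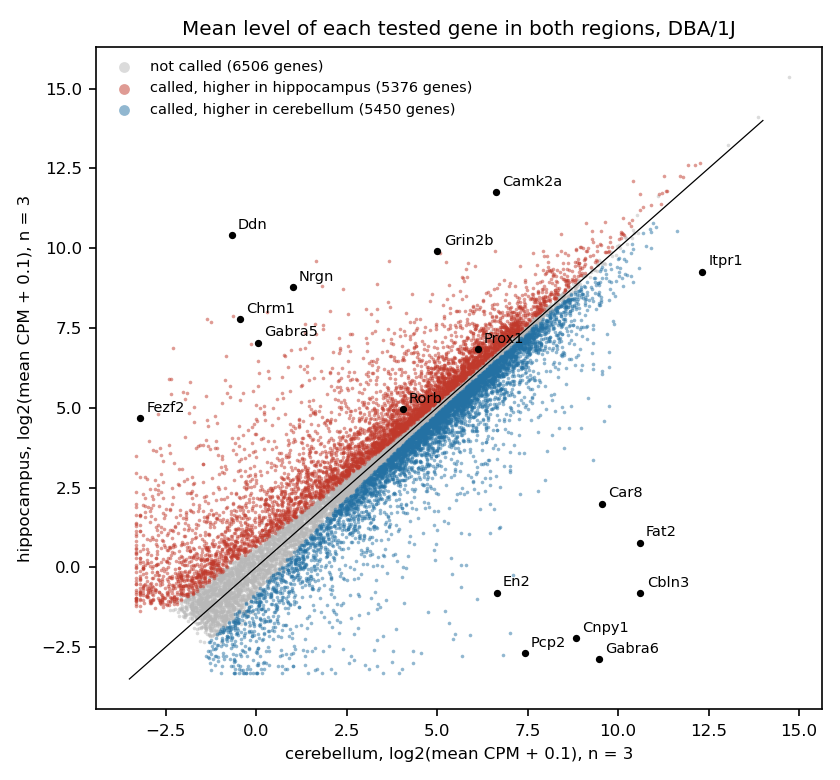
Mean level of the 17332 tested genes in cerebellum (horizontal axis) and hippocampus (vertical axis) of 3 DBA/1J mice, as log2 of the mean CPM plus 0.1. Points above the line are higher in hippocampus; 5376 called genes are red and 5450 are blue. *Ddn*, *Nrgn* and *Fezf2* lie far above the line and *Gabra6*, *Cbln3* and *Pcp2* far below it, while *Prox1* and *Rorb* lie near it.

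The marker genes of the 2 regions separated them to very different degrees. *Pcp2* encodes a Purkinje cell protein that modulates G protein signaling and lies on chromosome 8 from 3623369 to 3625547 in GRCm38. It was at 0.12, 0 and 0.05 CPM in hippocampus and at 158, 179 and 176 CPM in cerebellum (log2 fold change -11.55, SE 0.19, adjusted p = 1.41e-10 by edgeR), the fitted change ranging from -12.59 to -10.96 when an animal was left out. *Prox1* encodes the homeodomain factor that marks dentate granule neurons. It was at 122, 107 and 115 CPM in hippocampus and at 69.9, 73.1 and 65.8 CPM in cerebellum (0.72, SE 0.07, adjusted p = 1.01e-05 by edgeR). The regions did not overlap for either gene, as for 69.0% of all genes, but the separation by *Prox1* was small beside that by *Pcp2*. *Rorb* itself was low in both regions, at 31.6, 33.5 and 27.7 CPM in hippocampus and 16.2, 15.7 and 17.2 CPM in cerebellum (0.91, SE 0.09), against a mean of 92.9 CPM in the cortex of the same mice.

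The genes with the largest differences were nearly silent in 1 of the regions. On the cerebellar side, *Gabra6* was at 0.06, 0.03 and 0.02 CPM in hippocampus and at 672, 682 and 778 CPM in cerebellum (-14.15, SE 0.13), which was also the smallest p of all genes. *Cbln3*, a granule cell partner of the synapse organizer cerebellin 1, was at 0.27, 0.46 and 0.68 CPM in hippocampus against 1606, 1543 and 1563 CPM in cerebellum. *Fat2*, an atypical cadherin of granule cell axons, reached 1657, 1547 and 1429 CPM in cerebellum and stayed at or below 1.98 CPM in hippocampus. All 3 are genes of granule neurons, and their lowest cerebellar library lay far above the highest hippocampal library. *Cnpy1*, which acts in FGF signaling of the midbrain-hindbrain boundary, differed by -11.90 (SE 0.12), *Ppp1r17*, a phosphatase inhibitor of Purkinje cells, by -9.88 (SE 0.13) and *Dao*, the D-amino acid oxidase gene, by -10.06 (SE 0.21), or -10.67 without animal 3. Less familiar genes stood in the same rank. The cardiac myosin-binding gene *Mybpc3* was at 114, 118 and 107 CPM in cerebellum and at most 0.09 CPM in hippocampus, and the cytokine gene *Il22* was at 13.7, 16.1 and 19.1 CPM in cerebellum with 1 count in all 3 hippocampi. *Sycp1*, a gene of the meiotic synaptonemal complex, had 1880 counts in the cerebella and 0 in the hippocampi, at least 565-fold higher when 3 counts over the 3 hippocampi are taken as the floor.

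On the hippocampal side, *Ddn*, which encodes the dendritic protein dendrin, was at 1530, 1270 and 1271 CPM in hippocampus and at 0.59, 0.20 and 0.79 CPM in cerebellum (11.34, SE 0.19). *Icam5*, the telencephalic cell adhesion molecule telencephalin, was at 212, 207 and 196 CPM against 0.33, 0.27 and 0.37 CPM (9.29, SE 0.10). *Slc26a4*, the pendrin anion exchanger gene, had 1242 counts in the hippocampi and 0 in the cerebella, at least 459-fold higher by the same floor. These genes had no overlap between the regions, like 69.0% of all genes. *Rgs14*, a regulator of G protein signaling of CA2 neurons, differed by 9.19 (SE 0.16), *Chrm1*, the M1 muscarinic receptor gene, by 8.43 (SE 0.18, or 9.02 without animal 3), and *Gda*, the guanine deaminase gene, by 8.80 (SE 0.19). *Crhbp*, which encodes a protein that binds corticotropin-releasing hormone, had 1710 counts in the hippocampi and 3 in the cerebella, a ratio of 633 per unit of depth with a 95% counting interval of 216 to 3070 (exact binomial, counting error only). Genes with a less extreme ratio but very small replicate spread also belong here, among them *Scn3b*, a sodium channel beta subunit gene (258, 260 and 265 CPM against 4.29, 4.12 and 3.75 CPM), the pseudokinase gene *Camkv* (7.05, SE 0.09) and *Enc1*, an actin-binding ectodermal-neural cortex gene (5.92, SE 0.07).

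The 250 bases before a RefSeq transcript start (GRCm38.p6) are shown for 4 of these strongly regional genes, 3 of them cerebellar and *Nrgn*, a calmodulin-binding gene of forebrain spines, hippocampal, as examples of genes high in 1 region and nearly absent from the other. Capitals mark AGGTCA, the half-site read by ROR and other nuclear receptors, or CAGATG, an E-box of the kind bound by NeuroD factors, or the reverse complement of either. They are *Pcp2* (chr8:3625548-3625797, minus strand), *Fat2* (chr11:55312258-55312507, minus strand), *Cnpy1* (chr5:28245789-28246038, minus strand) and *Nrgn* (chr9:37552746-37552995, minus strand), each written 5′ to 3′ in the direction of its gene.
Pcp2: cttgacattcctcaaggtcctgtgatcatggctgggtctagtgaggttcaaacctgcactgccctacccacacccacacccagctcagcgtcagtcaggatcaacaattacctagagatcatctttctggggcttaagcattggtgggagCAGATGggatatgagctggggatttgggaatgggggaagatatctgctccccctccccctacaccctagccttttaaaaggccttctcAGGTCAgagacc
Fat2: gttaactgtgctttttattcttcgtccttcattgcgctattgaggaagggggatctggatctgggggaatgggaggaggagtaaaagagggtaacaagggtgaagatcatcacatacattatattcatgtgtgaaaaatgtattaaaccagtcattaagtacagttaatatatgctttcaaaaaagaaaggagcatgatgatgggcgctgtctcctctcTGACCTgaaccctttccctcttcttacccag
Cnpy1: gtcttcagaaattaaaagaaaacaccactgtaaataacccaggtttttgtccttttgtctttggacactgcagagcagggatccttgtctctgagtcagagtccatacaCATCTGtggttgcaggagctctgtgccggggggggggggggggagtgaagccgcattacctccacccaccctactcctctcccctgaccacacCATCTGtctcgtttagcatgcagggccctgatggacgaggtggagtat
Nrgn: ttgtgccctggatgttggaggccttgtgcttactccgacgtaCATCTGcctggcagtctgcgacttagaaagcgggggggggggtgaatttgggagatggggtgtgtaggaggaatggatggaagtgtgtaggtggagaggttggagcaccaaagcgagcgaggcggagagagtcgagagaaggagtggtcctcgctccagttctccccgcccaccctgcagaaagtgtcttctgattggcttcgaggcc
The *Pcp2* window, that of the most upstream of its 4 listed starts, holds AGGTCA with its first base 12 bases before the start and CAGATG at 100 bases, the *Fat2* window holds the reverse complement of AGGTCA at 31 bases, *Cnpy1* holds the reverse complement of CAGATG at 141 and 48 bases, and *Nrgn* holds it at 208 bases. Among 15414 windows of the tested genes, which cover 12058 of 17076 gene symbols, 10.9% hold AGGTCA and 10.5% hold CAGATG on either strand. AGGTCA was in 39 of 232 windows (16.8%) of genes over 8-fold higher in cerebellum and in 56 of 505 (11.1%) of those over 8-fold higher in hippocampus, and CAGATG was in 15.9% and 15.6%. The *Fat2* window lies within the span of its gene (55250609 to 55337505), not before the outermost start. Windows of 1 gene can overlap, some lie inside a gene, and a match describes the letters only.

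Transcription factors of regional identity divided almost completely. Of 16 forebrain factors measured, all 16 were tested, 14 were higher in hippocampus and 2 in cerebellum, beside 31.0% and 31.4% of all genes. Their median log2 fold change was 4.44 against -0.01 over all genes. *Lhx2*, a LIM factor of the pallium, was at 48.7, 42.1 and 40.5 CPM against 0.28, 0.20 and 0.02 CPM, and *Emx2*, which patterns the hippocampal primordium, had 850 counts in the hippocampi and 0 in the cerebella, at least 314-fold higher. The factors higher in cerebellum were *Zbtb18* (-0.32, SE 0.07) and *Nfix* (-0.30, SE 0.05), both broadly neuronal, and *Neurod2*, at 0.21, was close to equal. Of 27 hindbrain factors, 24 were tested, 22 were higher in cerebellum, 1 in hippocampus and 1 was not called (median -4.75). *En2*, the engrailed gene of the midbrain and hindbrain, was at 0.60, 0.52 and 0.32 CPM in hippocampus and at 98.7, 100.5 and 101 CPM in cerebellum. *Pax3*, *Tfap2b*, *Barhl2* and *Lhx5* had fold changes from -8.67 to -6.45 (*Barhl2* -9.59 without animal 2 and *Pax3* -7.89 without animal 3), and the 5 *Zic* genes from -4.82 to -1.87, the hippocampus of animal 2 being the highest hippocampal library for each of the 5. The exception was *Lhx9*, a LIM factor of the thalamus and of spinal interneurons, at 22.7, 20.2 and 22.1 CPM in hippocampus and 1.25, 1.26 and 1.25 CPM in cerebellum (4.10, SE 0.12), with a mean of 0.61 CPM in cortex.

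The neuron lists of the hippocampus were mostly but not wholly hippocampal. All 18 forebrain excitatory genes were higher in hippocampus (median 4.11), all 9 CA1 genes were (median 4.46), and 11 of 12 dentate granule genes were (median 3.25). *Camk2a*, the alpha subunit of calcium/calmodulin-dependent kinase II, was at 3851, 3244 and 3356 CPM in hippocampus and between 95.7 and 102 CPM in cerebellum. *Slc17a7*, the vesicular glutamate transporter shared by hippocampal and granule cell terminals, differed by only 0.99 (SE 0.07). *Dsp*, the desmoplakin gene that labels dentate granule neurons, was at 87.6, 63.9 and 77.3 CPM against 4.71, 4.66 and 3.19 CPM, and *Fibcd1*, a CA1 marker, at 101, 95.6 and 98.1 CPM against 0.45, 0.56 and 0.39 CPM. The dentate exception was *Tdo2*, the tryptophan dioxygenase gene, which was higher in cerebellum (-1.47, SE 0.19). Of 8 CA2 genes 4 were higher in hippocampus and 2 in cerebellum, and of 10 CA3 genes 7 and 3. Those shares were 31.0% and 31.4% over all genes, and the total called in CA2 was not far from their 62.5%. *Pcp4*, a calmodulin regulator of CA2 and Purkinje cells, was at 68.0, 77.8 and 67.5 CPM in hippocampus and 241, 260 and 272 CPM in cerebellum, and *St18*, a zinc finger gene of the CA3 list, was also higher in cerebellum (-2.35, SE 0.06).

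Interneuron genes went in both directions. Of 20 hippocampal interneuron genes 15 were higher in hippocampus, 4 in cerebellum and 1 was not called. Over all genes 31.0% were higher in hippocampus and 31.4% in cerebellum. *Sst*, the somatostatin gene, was at 71.7, 72.0 and 69.3 CPM against 1.28, 1.31 and 0.88 CPM, and *Vip* was at 13.4, 13.6 and 15.3 CPM against at most 0.11 CPM. The homeobox genes *Dlx1*, *Dlx2*, *Dlx5* and *Dlx6*, which mark neurons from the ganglionic eminences, were called toward the hippocampus and had few counts in cerebellum. *Dlx1* was at 17.8, 28.6 and 18.3 CPM against 0.22, 0.07 and 0.60 CPM, and *Dlx2* had 405 counts in the hippocampi and 2 in the cerebella, a ratio of 225 per unit of depth with a 95% counting interval of 61.8 to 1860. The fitted differences of *Dlx5* (5.96, SE 0.54, 7 cerebellar counts) and *Dlx6* (6.502, SE 0.63, 4 cerebellar counts) ranged from 5.23 to 7.91 and from 5.61 to 10.18 when an animal was left out. Those higher in cerebellum were *Cnr1*, *Calb2*, *Nos1* and *Maf*, which cerebellar neurons also use. Of 15 cerebellar interneuron genes 10 were higher in cerebellum and 4 in hippocampus. *Slc6a5*, the neuronal glycine transporter gene of Golgi cells, was at 43.3, 37.5 and 40.5 CPM in cerebellum and at most 0.33 CPM in hippocampus, and *Eomes*, a factor of unipolar brush cells, was at 49.1, 62.2 and 65.1 CPM against 0.77, 2.53 and 2.64 CPM.

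All 20 cerebellar granule genes and 27 of 28 Purkinje genes were higher in cerebellum, beside 31.4% of all genes. The medians of the lists were -4.03 and -3.88. Beside the genes above, *Neurod1*, a basic helix-loop-helix factor, differed by -4.28 (SE 0.07) and *Gabrd*, a GABA-A subunit of extrasynaptic receptors, by -3.14 (SE 0.07). Of the Purkinje genes, *Car8*, a carbonic anhydrase-related partner of the inositol trisphosphate receptor, was at 4.37, 4.19 and 3.10 CPM in hippocampus and 724, 715 and 811 CPM in cerebellum. *Itpr1*, that receptor's gene, was at 618, 582 and 648 CPM against 5063, 5048 and 5317 CPM. *Skor2*, a corepressor gene of Purkinje cells, had 1 count in the hippocampi and 1059 in the cerebella.

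**Figure D2:**
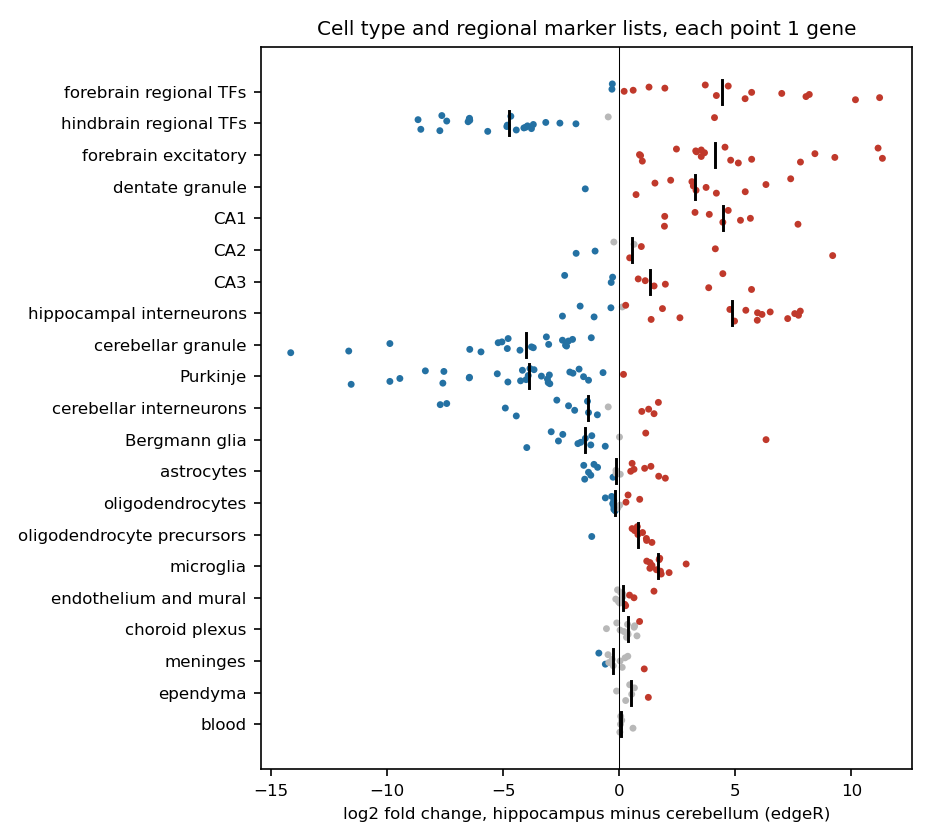
Log2 fold change between hippocampus and cerebellum for the tested genes of 21 marker lists. Each point is a gene, red where called higher in hippocampus, blue where called higher in cerebellum and grey where not called, and the black line is the median of the list. The forebrain excitatory, CA1, cerebellar granule and Purkinje lists lie almost wholly to 1 side, other neuronal lists lie on both, and the medians of the oligodendrocyte, endothelial, choroid plexus, meningeal and blood lists lie between -0.26 and 0.36.

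Glial and vascular genes were measured in the same libraries, where 31.0% of all genes were called higher in hippocampus and 31.4% in cerebellum. All 12 microglial genes were over 2-fold higher in hippocampus (median 1.66), beside 14.2% of all genes. *Cx3cr1*, the fractalkine receptor gene, was at 45.4, 38.3 and 42.6 CPM against 12.2, 11.7 and 12.1 CPM, and *P2ry12*, the purinergic receptor gene, at 31.9, 33.2 and 36.2 CPM against 7.08, 7.36 and 8.44 CPM. Summed over the list, hippocampal libraries held 323.5 to 345.8 CPM and cerebellar libraries 110.1 to 114.4 CPM. Of 9 genes of oligodendrocyte precursors 8 were higher in hippocampus, *Pdgfra*, their growth factor receptor, by 1.41 (SE 0.07), while *Vcan* was higher in cerebellum. The 12 genes of mature oligodendrocytes stayed within 2-fold: 3 were higher in hippocampus and 7 in cerebellum, and *Mbp*, the myelin basic protein gene, was at 1740, 1904 and 1654 CPM against 2004, 2204 and 1789 CPM. Endothelial and mural genes were close to equal at the median (0.15). Of 13 genes 5 were higher in hippocampus by edgeR, 1 of them over 2-fold, and 3 by DESeq2, with 0 in cerebellum. None of 5 blood genes was called by edgeR, with 0 of them at an unadjusted p under 0.05 and 0 called by DESeq2. The count of 0 endothelial genes toward cerebellum was also 0 by DESeq2, with 1 at an unadjusted p under 0.05 in edgeR.

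Astrocyte genes changed in both directions. Of 18 genes 17 were tested, 7 were higher in each region and 3 were not called, and *S100b* was listed at 0 in all 6 libraries. The shares of all genes were 31.0% higher in hippocampus and 31.4% in cerebellum. *Gfap*, the intermediate filament gene, was at 301, 274 and 289 CPM in hippocampus and 70.2, 80.6 and 67.7 CPM in cerebellum (1.99, SE 0.07). *Aqp4*, the water channel of astrocyte endfeet, went the other way, at 161, 184 and 180 CPM against 479, 488 and 506 CPM (-1.49, SE 0.06). The glutamate transporter genes differed in opposite directions, and both were high in each region. *Slc1a2* was at 4720, 4327 and 4176 CPM in hippocampus and 1401, 1314 and 1354 CPM in cerebellum, while *Slc1a3* was at 590.1, 572 and 520.4 CPM against 1286, 1294 and 1354 CPM. Gap junction genes *Gja1* (0.04, SE 0.06) and *Gjb6* (-0.14, SE 0.06) were not called, although *Gjb6* was called toward cerebellum with library sizes alone. Of 13 genes of Bergmann glia, the radial astrocytes of the cerebellar cortex, 10 were higher in cerebellum, led by the growth factor gene *Gdf10* (-3.98, SE 0.07), and 2 were higher in hippocampus, *Gria1* and *Npy2r*, which hippocampal neurons also use.

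Genes of tissues that adjoin the regions were measured beside these. Of 12 choroid plexus genes only *Prlr*, the prolactin receptor gene, was called by edgeR (0.88, SE 0.30, adjusted p = 0.0279, with the call lost without animal 1 or animal 3 and a range of 0.395 to 1.418 when an animal was left out) and 0 by DESeq2, and the summed level ranged from 933.8 to 3744 CPM in hippocampus and from 1431 to 1954 CPM in cerebellum. The hippocampus of animal 2 was the lowest of the 6 for 11 of the 12 genes, *Prlr* being the other, and the regions overlapped for all 12. Without that animal *Ttr* differed by 1.01 and was called. Striatal genes were summed to 134.9 to 218.3 CPM in hippocampus, animal 2 being the highest, and 165.8 to 181.3 CPM in cerebellum, and of the 10 tested 6 were higher in hippocampus, 2 in cerebellum and 2 were not called. Of the dopamine receptor genes, *Drd1* was at 5.21, 10.8 and 6.59 CPM against at most 0.56 CPM. Of 11 meningeal genes 8 were not called and of 6 ependymal genes 5 were not. Of 9 thalamic genes 6 were higher in hippocampus and 2 in cerebellum, although they summed to 146.1 to 197.1 CPM in hippocampus and 936.6 to 1006 CPM in cerebellum. Of 5 tested brainstem genes 1 was higher in hippocampus and 2 in cerebellum, and of 7 genes of deep nuclear neurons 2 and 2. The shares called in the brainstem and deep nuclear lists were near the 62.5% of all genes. The part of these admixed cells in the results above was not tested.

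Receptor families differed between the regions in which members were high. GABA-A receptors are chloride channels of 5 subunits, most often with alpha, beta and gamma subunits. Of 19 subunit genes 16 were tested, 9 were higher in hippocampus, 6 in cerebellum and 1 was not called. The shares of all genes were 31.0% and 31.4%, in the same order. Neighbouring subunit genes could be compared by position (GRCm38). On chromosome 11 *Gabra6* and *Gabrb2* were both higher in cerebellum (-14.15, SE 0.13, and -1.05, SE 0.08). On chromosome 7 *Gabrg3* and *Gabra5* were both higher in hippocampus (3.32, SE 0.10, and 7.13, SE 0.14). On chromosome 5 (70751047 to 72149572) *Gabra2*, *Gabra4* and *Gabrb1* were higher in hippocampus and *Gabrg1* (0.32, SE 0.14) was not called, and on chromosome X *Gabre*, *Gabra3* and *Gabrq* were higher in hippocampus. *Gabre* was not called without animal 2 or without animal 3, and *Gabrq* (3.03, SE 0.56) was at 4.12 without animal 1. Such genes are close neighbours, so they are not independent observations.

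*Gabra5*, the alpha 5 subunit of extrasynaptic receptors of pyramidal neurons, was at 138, 123 and 134 CPM in hippocampus and 0.92, 1.19 and 0.67 CPM in cerebellum (7.13, SE 0.14). The regions did not overlap, as for 69.0% of all genes. On the deposited length-normalized scale (TPM, transcript abundance after division by length and depth), *Gabra6* had a mean of 733.5 TPM in cerebellum, where *Gabra5* had a mean of 0.80 TPM. The 250 bases before the RefSeq starts of the pair with opposite patterns, *Gabra6* (chr11:42321073-42321322, minus strand) and *Gabra5* (chr7:57510060-57510309, minus strand), are printed with the same motifs in capitals.
Gabra6: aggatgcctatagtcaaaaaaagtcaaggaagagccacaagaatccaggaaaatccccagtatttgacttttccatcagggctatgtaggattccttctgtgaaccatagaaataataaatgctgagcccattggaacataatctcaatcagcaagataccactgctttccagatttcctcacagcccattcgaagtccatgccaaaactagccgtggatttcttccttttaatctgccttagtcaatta
Gabra5: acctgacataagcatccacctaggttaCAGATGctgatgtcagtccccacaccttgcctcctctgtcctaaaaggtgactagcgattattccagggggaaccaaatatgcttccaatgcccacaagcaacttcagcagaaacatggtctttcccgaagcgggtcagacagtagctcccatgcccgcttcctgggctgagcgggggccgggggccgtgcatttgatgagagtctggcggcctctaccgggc
Neither AGGTCA nor CAGATG was in the *Gabra6* window, and the *Gabra5* window holds CAGATG at 223 bases before the start. The *Gabra5* window lies within the span of its gene (57407669 to 57591016), not before the outermost start.

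**Figure D3:**
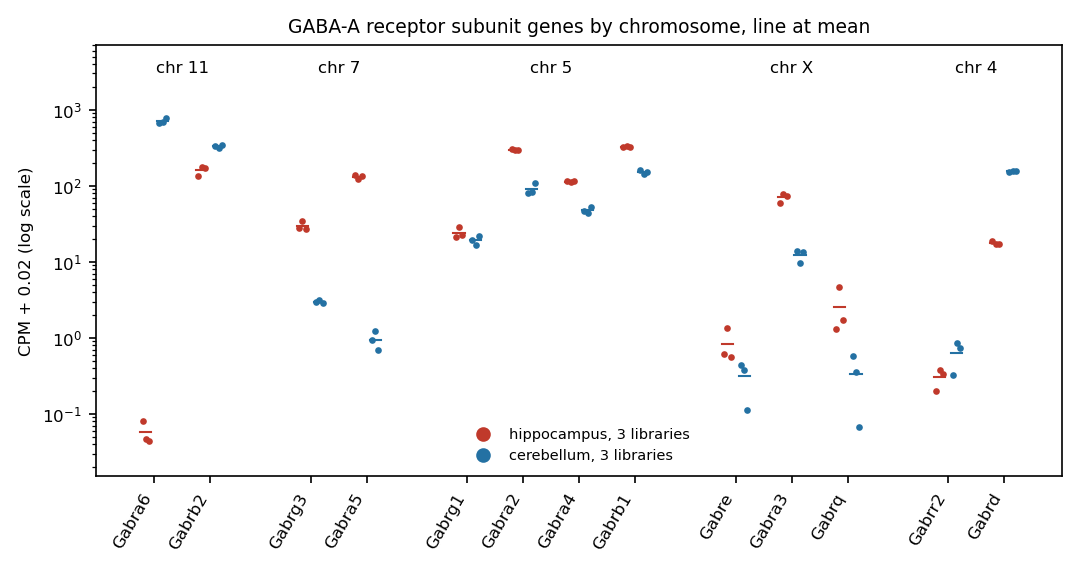
CPM plus 0.02 on a log scale of 13 GABA-A receptor subunit genes in 3 hippocampal (red) and 3 cerebellar (blue) DBA/1J libraries, ordered by position on each chromosome, with a line at the mean. The blue mean lies above the red for the genes drawn on chromosomes 11 and 4 and red above blue for those on chromosomes 7 and X.

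Of 18 ionotropic glutamate receptor genes 10 were higher in hippocampus and 7 in cerebellum, beside 31.0% and 31.4% of all genes. The NMDA receptor, a calcium-permeable channel, was exchanged in its GluN2 subunits. *Grin2b* was at 876, 989 and 1001 CPM in hippocampus and 34.7, 31.5 and 30.2 CPM in cerebellum (4.89, SE 0.09), and *Grin2c* was at 33.1, 30.5 and 29.2 CPM against 268, 270 and 228 CPM (-3.04, SE 0.06). *Grin1*, the obligatory subunit, differed by 0.29 (SE 0.05) and *Grin2d* was not called (0.08, SE 0.10). Of the AMPA receptor genes *Gria1*, *Gria2* and *Gria3* were higher in hippocampus (0.65 to 1.14) and *Gria4* in cerebellum (-2.93, SE 0.07). Auxiliary genes of ionotropic glutamate receptors divided as well. *Cnih2*, *Cnih3*, *Cacng8*, *Shisa7* and *Neto1* were over 4-fold higher in hippocampus, and *Cacng2* (stargazin), *Cacng5*, *Cacng7* and *Neto2* were higher in cerebellum with fold changes from -1.47 to -1.04.

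Of 8 metabotropic glutamate receptor genes 7 were tested, 4 were higher in hippocampus and 2 in cerebellum, beside 31.0% and 31.4% of all genes. *Grm5* was at 286, 342 and 328 CPM in hippocampus and 12.5, 12.7 and 11.7 CPM in cerebellum. *Grm4*, the presynaptic receptor of parallel fibers, was at 17.8, 23.9 and 19.6 CPM against 529, 533 and 442 CPM. Both genes separated the regions without overlap, as did 69.0% of all genes. Of 5 tested glycine receptor genes 2 were higher in hippocampus and 3 in cerebellum. Of the cerebellins, secreted proteins that bridge neurexins and delta receptors, *Cbln1* and *Cbln3* were higher in cerebellum (-5.96, SE 0.07, and -11.66, SE 0.15) and *Cbln2* and *Cbln4* in hippocampus (5.16, SE 0.19, and 4.70, SE 0.22). Over 36 tested synapse organizers 21 were higher in hippocampus and 10 in cerebellum, beside the same shares of all genes. *Lrrtm1* and *Lrrtm4*, postsynaptic neurexin ligands, differed by 4.09 and 3.23 toward the hippocampus while *Lrrtm3* differed by -1.98.

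Calcium handling genes went in both directions. Of 38 genes 20 were higher in hippocampus and 15 in cerebellum, and 13 were over 2-fold on each side. Kinase and calmodulin-buffer genes *Camk2a*, *Prkca* and *Nrgn* and the calcium sensor genes *Hpca* and *Hpcal4* were over 4-fold higher in hippocampus. Store and buffer genes *Itpr1*, *Atp2a3*, *Calb1*, *Calb2* and *Pvalb*, with *Camk4* and *Hpcal1*, were over 4-fold higher in cerebellum. *Atp2a3*, a pump of the endoplasmic reticulum, was at 6.61, 7.18 and 5.91 CPM against 236, 261 and 254 CPM. Among voltage-gated channels, *Cacna1h*, a T-type calcium channel gene, differed by 4.73 (SE 0.08) and *Kcnc2* (Kv3.2) by 4.20 (SE 0.08) toward hippocampus. *Cacna1a*, the P/Q-type channel gene, differed by -1.73 (SE 0.06) and the T-type *Cacna1g* by -2.13 (SE 0.07). The paralogous T-type genes went in opposite directions. Libraries of the regions did not overlap for any of these 4 genes, as for 69.0% of all genes. Of 16 calcium channel genes 9 were higher in hippocampus and 5 in cerebellum, of 13 sodium channel genes 6 and 6, and of 25 potassium and HCN channel genes 8 and 14, beside 31.0% and 31.4% of all genes.

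Receptors for modulatory transmitters leaned to the hippocampus. Of 47 genes 45 were tested, 31 were higher in hippocampus, 5 in cerebellum and 9 were not called (median 2.79). Among all genes 31.0% were higher in hippocampus and 31.4% in cerebellum. *Htr1a*, a serotonin receptor gene, was at 33.7, 39.4 and 42.4 CPM against 0.06, 0.25 and 0.16 CPM, *Chrm1* at 232, 214 and 211 CPM against 0.53, 0.34 and 1.02 CPM, and *Npy2r*, a neuropeptide Y receptor gene, at 36.7, 32.8 and 35.5 CPM against 0.17, 0.43 and 0.67 CPM. Those higher in cerebellum included *Crhr1* (-2.97, SE 0.10), the receptor gene for corticotropin-releasing hormone, *Galr1*, *Htr1b* (-0.24 and not called without animal 1) and *Cnr1*. *Cnr1*, the cannabinoid receptor gene of presynaptic terminals, was at 231, 276 and 286 CPM against 579, 513 and 586 CPM. The GABA-B receptor genes *Gabbr1* (-0.12, SE 0.06) and *Gabbr2* (0.01, SE 0.05) were not called, although *Gabbr1* was called toward cerebellum with library sizes alone. *Htr2c* was called for the hippocampus (1.33, SE 0.17). It is abundant in choroid plexus, whose other genes varied between the hippocampi. Of 21 tested neuropeptide and granin genes 17 were higher in hippocampus and 3 in cerebellum, of which *Penk*, the proenkephalin gene, was at 11.2, 25.6 and 11.6 CPM against 57.9, 56.8 and 58.6 CPM.

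Immediate early genes, which neurons induce on activity, differed by region and also between animals. Of 18 genes 15 were higher in hippocampus (median 1.16) and 3, *Fos*, *Ier2* and *Dusp1*, in cerebellum, beside 31.0% and 31.4% of all genes. *Arc*, which acts at spines, was at 202, 198 and 107 CPM in hippocampus and 9.16, 9.21 and 10.8 CPM in cerebellum. *Egr3* was at 31.3, 34.3 and 31.0 CPM against 0.22, 0.25 and 0.14 CPM (7.30, SE 0.15). *Fos* was at 29.2, 36.8 and 18.6 CPM against 87.4, 85.4 and 26.4 CPM (-1.12, SE 0.16, adjusted p = 0.000223 by edgeR), so that cerebellum was higher in each animal although the regions overlapped. Animal 3, the male, was the lowest of its region in both regions for *Fos*, *Dusp1*, *Junb*, *Egr1*, *Npas4* and *Nr4a1*, and had the highest *Homer1* in both. With 1 male, sex and animal cannot be told apart.

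**Figure D4:**
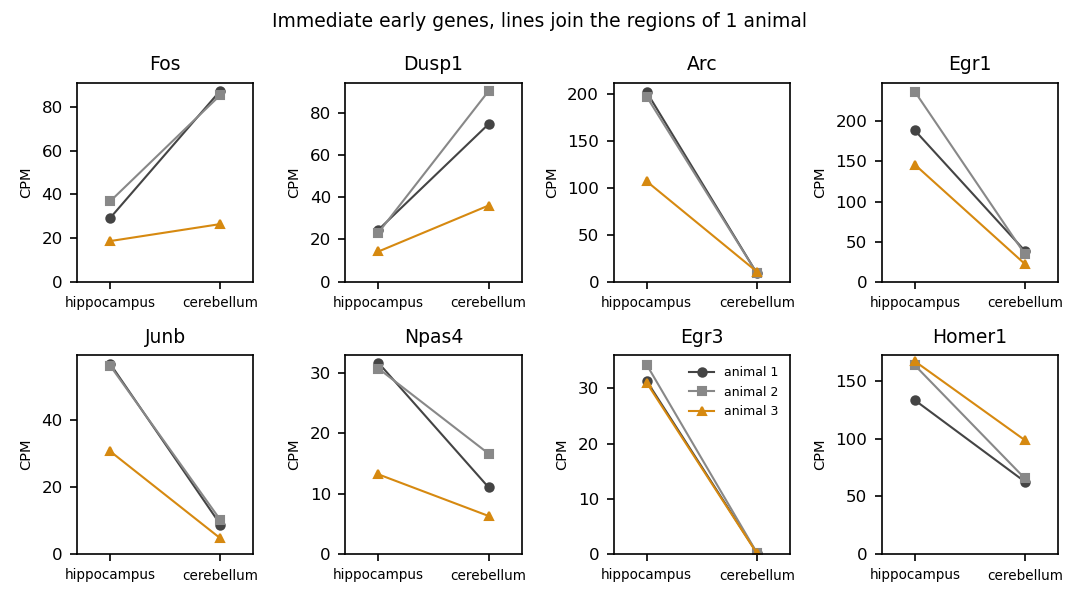
CPM of 8 immediate early genes in hippocampus and cerebellum, with a line for each of the 3 DBA/1J animals and each vertical axis starting at 0. *Fos* and *Dusp1* rise toward cerebellum and the others fall, and animal 3 (triangles) lies lowest for *Fos*, *Dusp1*, *Egr1*, *Junb* and *Npas4*.

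The nuclear receptors of the ROR family and the REV-ERB repressors, which read the same response elements, were measured beside *Rorb*. *Rora*, which Purkinje cells require to mature, was at 70.8, 80.2 and 69.9 CPM in hippocampus and 645, 573 and 671 CPM in cerebellum (-3.10, SE 0.09). *Nr1d1* differed by -0.83 (SE 0.06) and *Nr1d2* by -1.20 (SE 0.07), so all 3 were higher in cerebellum. Of the 28 Purkinje, 20 cerebellar granule and 18 forebrain excitatory genes, 16, 16 and 13 had a window before a listed start. By gene, AGGTCA was in a window of 5, 4 and 1 of them, beside 13.1% of all genes with a window, and CAGATG in 1, 2 and 1, beside 12.4%. Genes of adult neurogenesis, which continues in the dentate gyrus, were higher in hippocampus in 9 of 14 cases, beside 31.0% of all genes. Their summed level was higher in cerebellum, at 640.8 to 699.3 CPM against 159.9 to 192.4 CPM in hippocampus. *Dcx*, the doublecortin gene of new neurons, was at 37.9, 43.9 and 33.7 CPM against 9.22, 9.59 and 10.8 CPM and *Mki67*, a proliferation gene, at 3.51, 4.11 and 2.42 CPM against 1.09, 0.92 and 0.44 CPM. The 3 that were higher in cerebellum, *Neurod1*, *Eomes* and *Calb2*, are also genes of cerebellar neurons.

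Endoplasmic reticulum chaperones fold secreted and membrane proteins. Of 15 genes 8 were higher in cerebellum, 1 in hippocampus and 6 were not called, beside 62.5% called over all genes. None of the 15 was over 2-fold, beside 23.9% of all genes, and the median was -0.19. *Hspa5*, the BiP gene, was at 244, 292 and 344 CPM in hippocampus and 299.5, 438 and 545 CPM in cerebellum (-0.52, SE 0.07). Animal 1 had the lowest and animal 3 the highest value in each region. Of 11 genes of DNA methylation and its readers, 6 were higher in cerebellum and 1 in hippocampus, a share of calls near that of all genes, *Tet1*, a methylcytosine dioxygenase gene, by -1.95 and *Dnmt3a*, a methyltransferase gene, by -0.91. Of 19 developmental signaling genes 8 were higher in each region, beside 31.0% of all genes in hippocampus and 31.4% in cerebellum. Among them were *Wnt7b*, *Wnt2* and *Bmp3* in hippocampus and *Wnt7a*, *Wnt3*, *Gli1* and *Ptch1* in cerebellum.

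In H5/H5 mice the same regional contrast was fitted separately. There 10574 of 17102 genes were called (61.8%). Of 16893 genes tested in both genotypes, 9465 were called in both, which is 88.6% of the DBA/1J calls and 90.1% of the H5/H5 calls, and 9463 of them had the same direction. Across genes, which are not independent replicates, the fold changes correlated at a Pearson r of 0.963. Of those tested in both, 4003 were called and over 2-fold in DBA/1J and 3996 of these had the same sign in H5/H5. *Rorb* differed by 0.83 between the regions in H5/H5 mice, against 0.91 in DBA/1J, and *Prox1* by 0.86 against 0.72. The animal labelled H5/H5 replicate 3 is labelled female, but its hippocampus and cerebellum held *Ddx3y*, a Y-linked gene, at 69.5 and 84.3 CPM and *Xist* at 0.28 and 0.31 CPM.

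**Figure D5:**
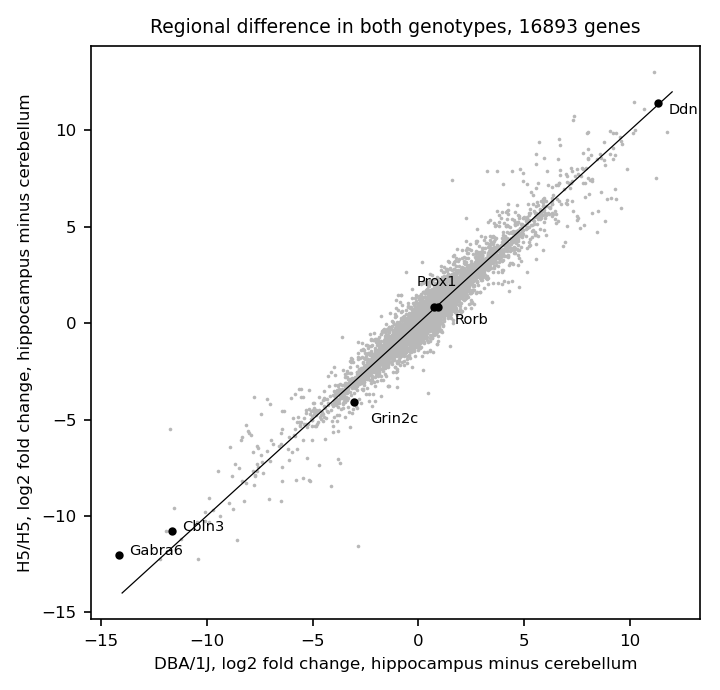
Log2 fold change between hippocampus and cerebellum in DBA/1J (horizontal axis) and H5/H5 mice (vertical axis) for 16893 genes tested in both, each from 3 animals, with the line of equality. Points follow the line, and *Grin2c*, the gene called for a difference between genotypes, lies below it at -3.04 and -4.10.

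A test of the difference itself called 1 of 17832 genes (0.00561%) with edgeR, while 758 had an unadjusted p under 0.05 and DESeq2 called 12. The gene was *Grin2c*, the GluN2C subunit gene. It differed between regions by -3.04 in DBA/1J and by -4.10 (SE 0.08) in H5/H5, a difference of 1.07 (SE 0.10, adjusted p = 0.0352 by edgeR). Its mean level in hippocampus was 30.9 CPM in DBA/1J and 16.0 CPM in H5/H5, and in cerebellum 255 and 278 CPM. The TMM factors behind these means came from different sets of libraries for the genotypes. The study mentions slight age differences at collection for this hippocampal comparison and does not say which animals differed. The labels give the same age for each animal, so age was not tested. By *Xist* and *Ddx3y* the mix of sexes differed between the genotypes, and sex was not in the fit. Without any 1 of 5 of the 6 animals the adjusted p was from 0.0675 to 0.166, and it was 0.00623 without H5/H5 replicate 2.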

How the data were processed

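Polyadenylated RNA of hippocampus and cerebellum was sequenced from 3 DBA/1J and 3 H5/H5 mice. Per the labels and the study's methods, the authors trimmed reads with Trim Galore, aligned them with STAR and estimated gene abundance with RSEM on GRCm38, without pooling replicates. The annotation release is not given in the sources used here. The deposited expected counts, of which 5.09% were not whole, were rounded. The deposited TPM values, which the authors' RSEM run divided by length and depth, were used only to compare levels between genes. Symbols were matched for 41403 of 45706 identifiers and GRCm38 positions for 31197, and identifiers without a symbol held 2.10% to 5.52% of counts in the 6 libraries. They stayed in the fits.

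Counts were filtered with filterByExpr, TMM-scaled and tested with edgeR 4.0.16 (R 4.3.3, limma 3.58.1) by a quasi-likelihood fit with animal as a block and a Benjamini-Hochberg threshold of 0.05. The block comes from the animal identity that both regions share. After removal of group means, libraries of 1 animal correlated at -0.006, 0.014 and 0.115, and those of different animals at -0.084 to 0.067. An interaction term compared the genotypes. Printed CPM of cortex and H5/H5 libraries used TMM factors over hippocampus, cerebellum and cortex of both genotypes. Those of the 6 DBA/1J libraries used factors of these 6 alone. Principal components used 500 genes at a prior count of 2. The fit was tested on simulated data. P-values cover the spread between 3 animals.

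Members of 43 gene lists (611 genes, 587 tested, 291 called toward hippocampus and 201 toward cerebellum) could be named. So could *Rorb*, *Prox1* and *Pcp2*, the 15 largest changes in each direction among genes of at least 10 CPM, the 10 smallest p-values, the 10 highest mean TPM per region, and paralogues called in opposite directions past 2 on the log2 scale. The members, lists and motifs were chosen with earlier results of these data known, while families in the closing section were picked once their values were known. Results were refitted with DESeq2 1.42.0, other scalings, no filter, no block, a fold threshold of 1.5 and leaving out each animal. Brain hemisections, spinal cords and other alleles were not used here. Results of some genes are not reported here.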

Additional observations from a re-analysis of the deposited data

Results flagged for a closer look

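*Grin2c* differed between genotypes in its regional contrast by 1.072 on the log2 scale (DBA/1J minus H5/H5, edgeR adjusted p = 0.0352), and was listed because the difference itself passed the test. The hippocampal mean was 30.9 CPM in DBA/1J and 16.0 CPM in H5/H5. Over the alternatives the difference ranged from 0.948 to 1.135 and the edgeR or DESeq2 adjusted p from 1.57e-17 to 0.166. The cause was not tested.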

How the results depend on the processing

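The regional contrast called 10826 genes, 9597 with DESeq2, 10926 with library sizes alone (4868 higher in hippocampus and 6058 in cerebellum, against 5376 and 5450), 10794 with DESeq2 size factors (5447 and 5347), 11057 without the low-count filter and 11088 with no replicate block, so the pairing by animal did not raise the count. A test against a 1.5-fold change called 4702, since it asks for a larger difference. Leaving out 1 animal gave 9635 to 10130. The genotype difference was called for 12 genes by DESeq2, 11 without the filter, and 0 to 1 when an animal was left out, with 0 for each DBA/1J animal. Of 156 named genes tested, 145 kept direction and call under each alternative run for single genes. *Gabbr2* changed sign with library sizes alone (-0.047) and ranged from -0.003 to 0.02 when an animal was left out, and *Gja1* likewise (-0.015, and -0.011 to 0.128), neither being called. *Ttr* ranged from -0.252 without animal 3 to 1.006 without animal 2. *Mbp*, *Neurod2*, *Prlr*, *Htr1b* and *Gabre* each lost their call without at least 1 animal, and *Gabrg1* was called without animal 3, without the filter or with no block. With library sizes alone *Gabbr1* (-0.174) and *Gjb6* (-0.2) were called toward cerebellum. Library sizes alone moved the medians of the CA3 (1.251), microglial (1.602), endothelial (0.094), calcium signaling (0.205) and calcium channel (0.374) lists and of the Zfp (-0.277) and hnRNP (-0.247) families by more than the spread between animals, with their signs kept. The causes were not tested.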

Other observations

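Housekeeping families also differed between the regions, by small amounts, in groups formed from gene symbols after the values were seen. Of 82 cytosolic ribosomal protein genes 67 were higher in hippocampus and 1 in cerebellum (median 0.37), beside 31.0% and 31.4% of all genes. Of 15 genes of the mitochondrial genome 13 were higher in hippocampus (median 0.51), while of the nuclear genes of the respiratory chain 12 of 19 ATP synthase genes and 11 of 17 cytochrome c oxidase genes were higher in cerebellum and 2 of each higher in hippocampus. Of 48 complex I genes 25 were not called, 21 were higher in cerebellum and 2 in hippocampus. Mitochondrial transcripts were 5.39% to 6.32% of counts in hippocampus and 3.94% to 4.65% in cerebellum. Of 386 zinc finger genes named Zfp, 173 were higher in cerebellum and 58 in hippocampus, a total share called near the 62.5% of all genes.

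Families of signaling, adhesion and RNA processing were counted in the same way, beside 31.0% of all genes higher in hippocampus and 31.4% in cerebellum. Of 20 Rgs genes, regulators of G protein signaling, 14 were higher in hippocampus and 4 in cerebellum (median 1.03), and of 22 Eph receptor and ephrin genes 12 and 4 (median 0.95). Of 6 Celf genes, which encode RNA-binding proteins, 5 were higher in hippocampus (median 1.49). Of 20 hnRNP genes 12 were higher in cerebellum and 1 in hippocampus, and of 22 protocadherin beta genes 11 and 3. The total share called in either family was near the 62.5% of all genes. Of 16 synaptotagmin genes 6 were higher in each region, a share near that of all genes. The signs of these medians were the same under each scaling, and in H5/H5 mice the medians were 0.39 for ribosomal proteins, 1.17 for Rgs and 1.56 for Celf genes, while that of the synaptotagmins was near 0.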
